A study of Rattus norvegicus with 12 samples.

Results

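The line by ligation interaction asks whether nerve injury changed a gene's RNA by a different amount in Low Pain (LP) than in High Pain (HP) rats. For each gene it is the response in LP (spinal nerve ligation, SNL, minus sham) minus the response in HP, on the scale of log2 of the array signal plus 1. A value above 0 means that the LP response lay further up, or less far down, than the HP response. All 12 of 12 arrays of the series enter it, and 10411 genes were measured, each by 1 probe set, the brightest over the arrays. Crossing 2 sub-lines with 2 operations gave 4 groups of 3 arrays, HP and LP after sham and HP and LP after SNL, and each array read total RNA of dorsal root ganglia of levels L4/L5. All animals were adult male Sprague Dawley rats of genetic sub-lines, and no transgene is named in the labels. In the SNL groups the spinal nerves at these levels were tied and the ganglia were taken 3 days later, while sham surgery left the nerve undamaged. The sources used here do not give how the sub-lines were bred, the age in weeks, or whether an array held 1 animal or a pool. Since no label ties the 3 arrays of a group to different animals, the spread behind each p-value is that between these samples, and it may be technical.

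Sensory neurons in these ganglia send axons into the spinal nerve, and tying the nerve cuts most of them off from their targets. Injured neurons are known to switch on growth and stress genes such as Atf3, Sprr1a and Gal, and to lower channels and receptors of the resting nociceptor. Satellite glia respond around the cell bodies, macrophages enter or divide, and cells of the connective tissue proliferate. Serpina3n, a secreted serine protease inhibitor, and leukocyte elastase, a protease of neutrophils and T cells, are the molecules named in the title of the study. No probe set carried the single gene name Elane, so elastase has no value here.

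The labelled tissue carried its markers on every array. Signals of the neuronal gene Prph, an intermediate filament of small sensory neurons, lay between 5664.3 and 8122.8. The satellite glia enzyme gene Glul lay between 1663.9 and 3161.6, and the Schwann cell gene Pmp22 between 9731.3 and 13454.5. Pou4f1 and Adipoq, also chosen as markers, had no usable probe set. Median signals of the arrays were 278.4 to 313.2, and their 5th percentiles were 12.4 to 20.8, so signals under about that level carry little information. The number of arrays limits the precision.

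The starts of 3 genes described below are shown, none of which passed the test of the interaction. Scn10a and Scn11a encode sodium channels of nociceptors and are the brightest neuronal genes among the 20 smallest interaction p-values, and Serpina3n is the inhibitor the study is about. The sequences and positions are from RefSeq on the rat assembly GRCr8, 250 bases before to 50 bases after the gene start, 5′ to 3′ on the gene's strand. Scn10a lies on the minus strand at chr8:128340249-128340548 and Scn11a on the minus strand at chr8:128444669-128444968, with 1 protein-coding gene between them. Serpina3n lies on the plus strand at chr6:129088142-129088441.
Scn10a: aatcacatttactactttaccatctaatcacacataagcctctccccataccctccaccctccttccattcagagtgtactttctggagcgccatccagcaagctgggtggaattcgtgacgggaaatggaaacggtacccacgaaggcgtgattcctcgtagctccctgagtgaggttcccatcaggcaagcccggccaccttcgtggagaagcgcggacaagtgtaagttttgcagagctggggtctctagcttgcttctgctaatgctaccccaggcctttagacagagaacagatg
Scn11a: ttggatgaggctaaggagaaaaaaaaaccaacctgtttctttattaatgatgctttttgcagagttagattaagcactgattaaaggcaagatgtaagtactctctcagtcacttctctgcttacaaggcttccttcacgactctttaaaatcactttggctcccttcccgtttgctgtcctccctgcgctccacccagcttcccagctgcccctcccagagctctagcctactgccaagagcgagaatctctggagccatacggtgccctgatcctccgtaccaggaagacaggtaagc
Serpina3n: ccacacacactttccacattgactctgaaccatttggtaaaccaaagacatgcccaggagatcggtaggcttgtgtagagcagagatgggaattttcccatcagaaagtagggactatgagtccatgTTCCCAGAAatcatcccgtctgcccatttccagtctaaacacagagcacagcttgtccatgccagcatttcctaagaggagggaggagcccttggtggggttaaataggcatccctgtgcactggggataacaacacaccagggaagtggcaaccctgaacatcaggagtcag
The capitals in Serpina3n mark a match to TTCNNNGAA, the letters that STAT factors are known to bind, which begins 123 bases before the start. The same search found no TGANTCA (AP-1) and no TGACGTCA (CRE) in these windows, and no TTCNNNGAA in the starts of Scn10a or Scn11a. Each of these motifs reads the same on both strands, and no match overlapped another. Of 33469 rat promoters of the same length, 8.87% held TTCNNNGAA, 7.33% held TGANTCA and 1.83% held TGACGTCA. The motifs were picked after the expression values were known, and a match describes the letters only.

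No gene passed the test of the interaction. By limma, adjusted over all genes by the method of Benjamini and Hochberg, 0 of 10411 genes (0.0%) had an adjusted p under 0.05, and the smallest adjusted p was 0.189. At an unadjusted p under 0.05 there were 490 genes, or 4.71%, of which 303 (2.91%) had an interaction above 0 and 187 (1.8%) below 0. Without HP sham replicates 1 and 3, on which the muscle genes Acta1 and Myh4 were high, the split was 262 above and 304 below. Quantile normalization turned it as well, to 212 above and 291 below, so neither direction prevailed under every setting. The arrays set how small a difference could be seen. The 95% interval of the interaction reached a median of 0.52 log2 units to either side (quartiles 0.39 and 0.80). It lay wholly within a 2-fold difference for 7297 genes (70.1%), and wholly beyond 2-fold for 9. In the dimmest 25% of genes the interval reached 1.22 to either side and 8.11% of genes had an unadjusted p under 0.05, against 0.37 and 2.8% in the brightest 25%.

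**Figure D1:**
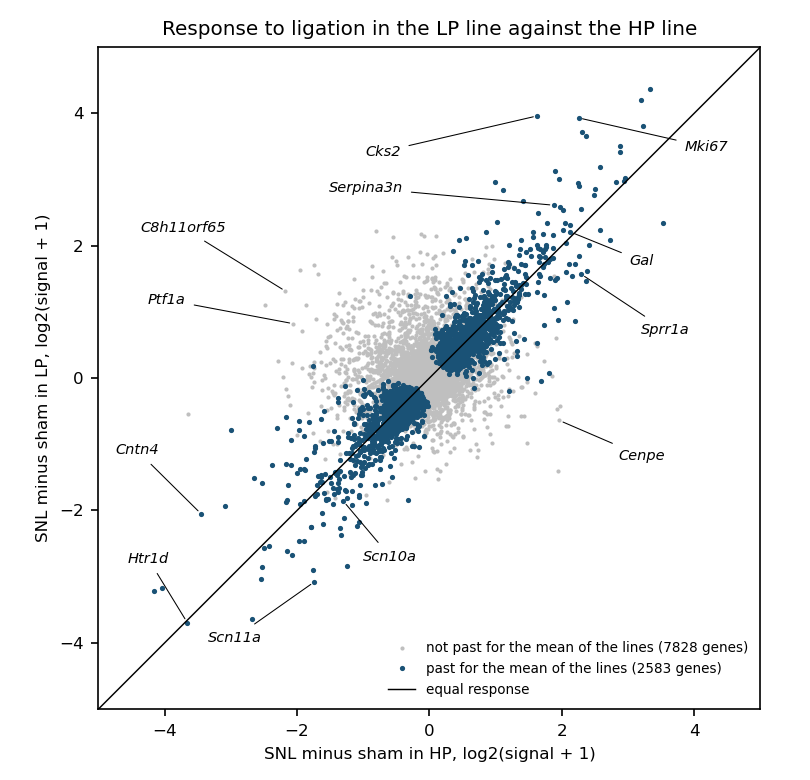
Each point is a gene, placed by its SNL minus sham difference in HP (x axis) and in LP (y axis), both as log2(signal + 1), with 3 arrays per group. The diagonal marks equal responses, blue points are the 2583 genes past the threshold for the response averaged over the lines, and most of them lie along the diagonal.

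Averaged over the lines, ligation changed 2583 of 10411 genes (24.8%) by limma, 1354 upwards (13.0%) and 1229 downwards (11.8%). In this balanced design the estimate of that average is independent of the estimate of the interaction, but both tests use the same variance of a gene. Genes called for the average therefore had narrower intervals of the interaction, reaching a median of 0.43 to either side for risers and 0.40 for fallers, against 0.52 over all genes. Among the 1354 genes that rose, the median response was 0.51 in HP and 0.53 in LP, and the median interaction was 0.03. Among the 1229 that fell, the medians were -0.47 and -0.48, and the median interaction was -0.04. The response lay in the same direction in both lines for 1349 of the risers and 1228 of the fallers. The interval of the interaction stayed within 2-fold for 83.8% of risers and 87.3% of fallers, most of which changed little. Among those that changed at least 2-fold it did so for 38.4% of risers and 44.9% of fallers, so for most strong responders a 2-fold difference between the lines lay inside the interval. Because the calls favour genes of small variance, the share of unadjusted p-values under 0.05 in these classes cannot be read against the 4.71% of all genes.

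Called genes leaned slightly towards LP, more so among strong risers but not among strong fallers. Of the 211 genes (2.03%) that rose at least 2-fold on average, 145 (68.7%) had the larger response in LP, against 56.8% of all 1354 risers. Their medians were 1.31 in HP and 1.51 in LP. Of the 158 (1.52%) that fell at least 2-fold, 94 (59.5%) had the larger response in LP, against 60.1% of all 1229 fallers. Their medians were -1.37 and -1.43. Over all genes tested the share was 52.0%. A response size was also computed for each array, as the slope of its difference from the sham mean of its line on the mean response of the 2583 genes, so that 1 is the mean of both lines. It was 0.89, 0.99 and 1.0 on the HP SNL arrays and 1.05, 1.02 and 1.04 on the LP SNL arrays. The LP SNL arrays all lay above the HP SNL arrays, by little, and HP SNL replicate 1 was the lowest. The sham arrays lay between -0.08 and 0.06. Over these genes the LP response was 1.08 times the HP response, and 0.991 times without HP SNL replicate 1, 1.18 times without LP sham replicate 3, 1.13 times without LP sham replicate 2, and 0.995 times with the 3' to 5' ratio of the actin probe sets, a sign of RNA quality, as a covariate. That ratio was 1.483 to 1.847 in HP sham and 1.118 to 1.342 in HP SNL, but 0.993 to 1.877 in LP sham and 1.113 to 1.125 in LP SNL, and its part in the result was not tested beyond this covariate.

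**Figure D2:**
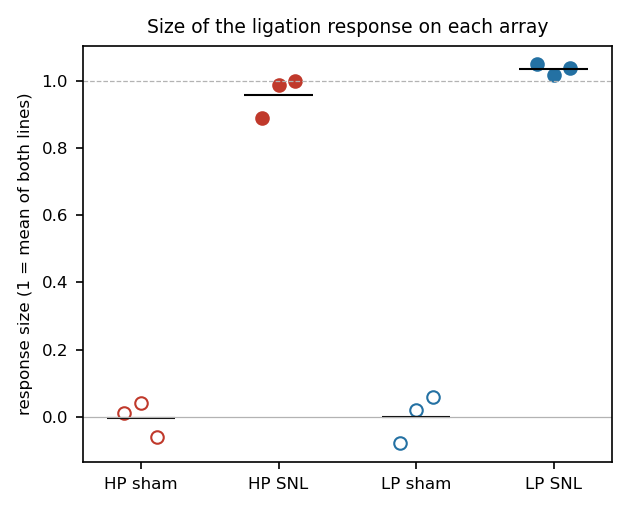
The response size of each array (points, y axis, no unit) is the slope of its gene differences from sham on the mean response, where 1 is the mean of both lines, and bars are means of 3 arrays. The LP SNL arrays (1.02 to 1.05) sit just above the HP SNL arrays (0.89 to 1.0), and sham arrays centre on 0 by construction.

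The number of calls in each line depended on single arrays. In HP, 1419 genes (13.6%) passed, 731 up and 688 down, and in LP 1504 (14.4%), 797 up and 707 down. Without HP sham replicate 1 the counts were 846 in HP and 1354 in LP, and with the actin covariate 816 and 1433. Leaving out HP sham replicate 3, HP SNL replicate 2 or HP SNL replicate 3 gave 866, 945 and 875 in HP. Both lines called 999 genes (9.6%), and a single gene of these, C8h11orf65, went in opposite directions (0.00961% of genes). The difference in each line is taken from the arrays of that line, but the spread behind both counts comes from the same fit of all arrays. Leaving out HP sham replicate 1 thus moved the LP count too, from 1504 to 1354. A gene called in 1 line alone is not shown to differ between the lines, which is what the interaction tests.

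Among genes of the resting nociceptor, the sodium channel genes Scn10a and Scn11a had the smallest interaction p-values. Scn10a encodes a tetrodotoxin-resistant channel that carries much of the action potential of nociceptors. Its signals were 3007.4, 2770.1 and 2677.1 in HP sham, 1132.0, 1135.3 and 1153.4 in HP SNL, 2530.5, 2754.4 and 2847.3 in LP sham, and 733.1, 740.2 and 769.6 in LP SNL. The sham arrays of the lines overlapped, and after ligation every LP array lay below every HP array. Scn10a fell by 1.30 ± 0.08 (SE) on the log2 scale in HP (limma adjusted p = 3.69e-05) and fell by 1.86 ± 0.08 in LP (adjusted p = 3.4e-06), a 2.47-fold and a 3.62-fold fall. The interaction was -0.55 ± 0.12 (95% interval -0.81 to -0.29, unadjusted p = 0.000808, adjusted p = 0.745), and it lay between -0.60 and -0.52 when each array was left out in turn. In whole ganglia, fewer cells of a type and less RNA per cell cannot be told apart.

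Scn11a encodes another tetrodotoxin-resistant channel, which sets the resting excitability of the same neurons. Its signals were 1894.2, 1873.8 and 1776.2 in HP sham, 731.5, 502.2 and 458.9 in HP SNL, 1887.4, 1898.7 and 3029.9 in LP sham, and 253.4, 268.9 and 259.6 in LP SNL. The groups again overlapped after sham and stood apart after ligation, and LP sham replicate 3 was the highest array. Scn11a fell by 1.74 ± 0.21 in HP and fell by 3.08 ± 0.21 in LP, with limma adjusted p = 0.000657 and 3.9e-05. The interaction was -1.34 ± 0.29 (95% interval -1.99 to -0.69, adjusted p = 0.745), and -1.12 without LP sham replicate 3.

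**Figure D3:**
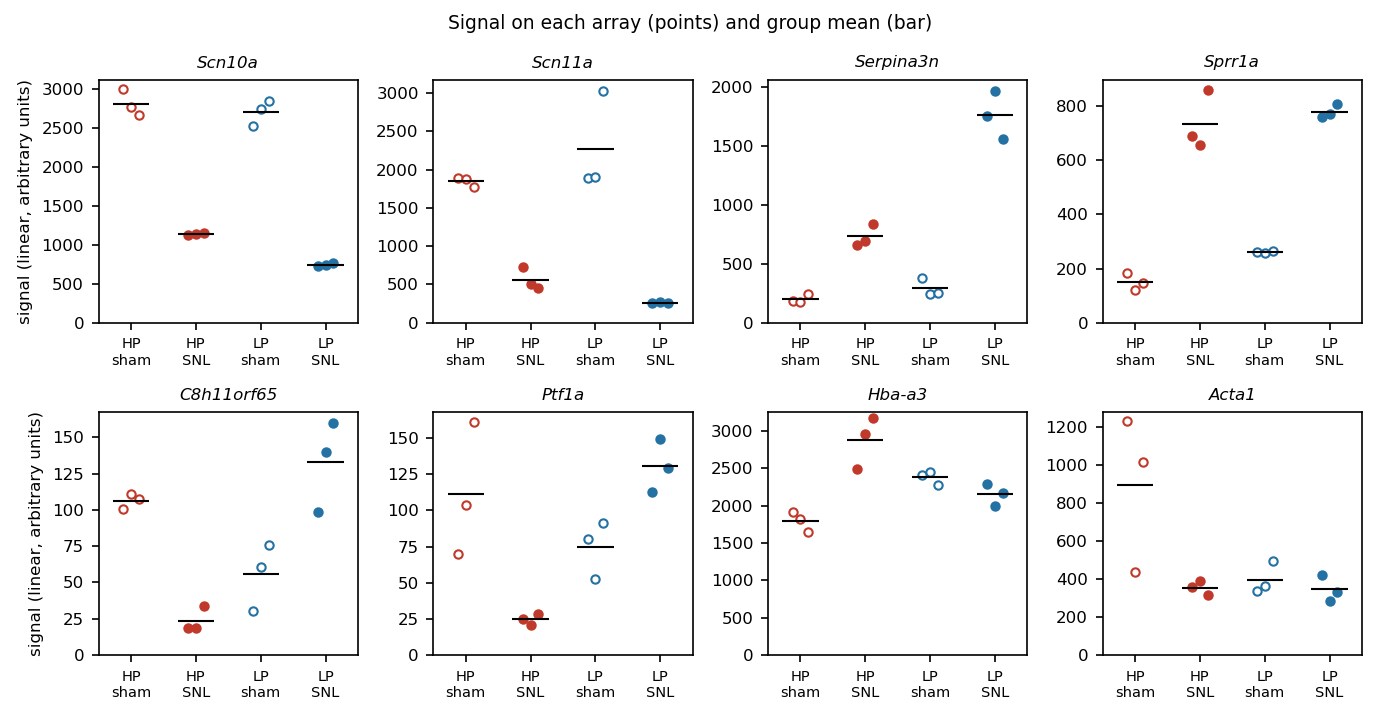
Signals of 8 genes on each of the 12 arrays (points, y axis, linear arbitrary units from 0), with the mean of 3 arrays as a bar, HP in red, LP in blue, sham open and SNL filled. Scn10a and Scn11a overlap between lines after sham and are lower in LP after SNL, Serpina3n is higher in LP after SNL, and Acta1 is high on 2 HP sham arrays.

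Most genes of the nociceptor list lay on the same side, and Scn10a and Scn11a are counted among them. Of 30 measured nociceptor and sensory neuron markers, 24 had an interaction below 0. That is 80.0%, against 48.5% of all genes and 60.1% of the 1229 genes called as falling on average. The median interaction of the markers was -0.14, against 0.01 over all genes. Their median response was -0.52 in HP and -0.70 in LP. In HP 17 fell (6.61% of all genes did), in LP 19 fell (6.79% of all genes), and none rose. No member passed the test of the interaction. At an unadjusted p under 0.05, 4 were below 0 (Scn10a, Scn11a, Calca and Acp3) and 1 was above 0 (Cntn4). Of all genes, 1.8% were below and 2.91% above 0 at that level. The median lay between -0.19 and -0.09 when each array was left out. The summed signal of these markers was 51457 to 54090 in HP sham and 50952 to 54061 in LP sham. It was 37894 to 41075 in HP SNL and 32178 to 35971 in LP SNL, with no overlap between the lines after ligation. Bright genes weigh most in this sum, so it does not show a lower level across the list. The bright marker Prph had means of 7674 in HP SNL and 6340 in LP SNL. Its means after sham were 7244 in HP and 6533 in LP, and its interaction was -0.12 ± 0.17. Calca, which encodes the pain peptide CGRP, had signals of 5196.8, 4641.5 and 4698.1 in HP SNL and 3829.6, 3357.7 and 3332.7 in LP SNL. The LP arrays of Calca were lower after sham too, and its interaction was -0.31 ± 0.13 (adjusted p = 0.988), with -0.60 and -0.27 on its other probe sets. Acp3, a phosphatase of non-peptidergic nociceptors, fell by 2.68 ± 0.25 in HP and fell by 3.64 ± 0.25 in LP, with an interaction of -0.96 ± 0.35 (limma adjusted p = 0.988). Its LP SNL signals of 17.6, 18.9 and 17.4 lay near the 5th percentile of the arrays, so the size of the LP fall is uncertain.

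Cntn4, a cell adhesion gene of neurons, had the smallest p of the 6 markers above 0. Its signals were 115.4, 126.0 and 145.3 in HP sham, 14.8, 11.6 and 7.3 in HP SNL, 171.9, 122.2 and 132.5 in LP sham, and 42.0, 26.3 and 33.3 in LP SNL. After ligation the HP arrays lay below the LP arrays, at or under the 5th percentile of the arrays. Its interaction was 1.40 ± 0.35 (95% interval 0.63 to 2.18, adjusted p = 0.988), with a fall in each line. The size is uncertain, and was 0.50 with a pseudocount of 32.

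Of 36 voltage-gated potassium channel genes, which set how readily a neuron fires, 25 had an interaction below 0. That is 69.4%, against 48.5% of all genes and 60.1% of the genes called as falling on average. Their median was -0.12 (-0.18 to -0.05 with each array left out). In HP 14 fell (6.61% of all genes did), in LP 15 fell (6.79% of all genes), and none rose in either. Kcns3, a modulatory subunit, fell by 1.63 ± 0.11 in HP and fell by 2.04 ± 0.11 in LP, with an interaction of -0.41 ± 0.15 (limma adjusted p = 0.988). Kcnip4, an accessory subunit of A-type channels, fell in LP by 1.5 ± 0.24 and had -0.57 ± 0.24 in HP (adjusted p = 0.00255 and 0.163), with an interaction of -0.94 ± 0.34 (adjusted p = 0.988). Kcns1, a subunit of sensory neurons linked to pain, went the other way. Its signals were 752.6, 808.6 and 776.1 in HP sham, 102.3, 52.9 and 136.2 in HP SNL, 611.8, 670.8 and 428.5 in LP sham, and 146.3, 115.2 and 186.9 in LP SNL. The LP sham arrays of Kcns1 lay below the HP sham arrays and the SNL arrays overlapped, and its interaction was 1.17 ± 0.45 (adjusted p = 0.988).

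Of 45 synaptic vesicle and secretory genes, 32 had an interaction below 0. That is 71.1%, against 48.5% of all genes and 60.1% of the genes called as falling on average. The median interaction was -0.10 (-0.14 to -0.07 with each array left out), and median responses were -0.22 in HP and -0.44 in LP. In HP 14 fell and 2 rose (6.61% and 7.02% of all genes), and in LP 18 fell and 1 rose (6.79% and 7.66% of all genes). At an unadjusted p under 0.05, 4 were below 0 and none above (1.8% and 2.91% of all genes). Sv2b, a vesicle glycoprotein, fell by 0.50 ± 0.10 in HP and fell by 0.98 ± 0.10 in LP, with an interaction of -0.49 ± 0.15 (limma adjusted p = 0.988), but its other probe sets gave -0.42 and 0.88. Syngr1, a vesicle membrane protein, had -1.72 ± 0.55, and 0.73 on its other probe set. Its signals were 33.8, 134.8 and 60.0 in HP sham and 200, 212 and 197 in LP sham, while the SNL arrays of the lines overlapped. Mapt, the gene of the axonal microtubule protein tau, fell by 0.50 ± 0.13 in HP and fell by 0.96 ± 0.13 in LP, with -0.45 ± 0.19 (adjusted p = 0.988) and -0.11 to 0.46 on its other probe sets. In the neuronal cytoskeleton list to which Mapt belongs, 20 of 28 genes had an interaction below 0, with a median of -0.08 that was 0.00 after quantile normalization. Of 65 respiratory chain genes, 41 had an interaction below 0 (63.1%, against 48.5% of all genes), and none had an unadjusted p under 0.05. Their median of -0.04 did not keep its sign (-0.07 to 0.01 with each array left out).

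Sodium and calcium channel subunits, neurotransmitter receptors and neuropeptides had members on both sides. The lists share members and are not independent. Scn10a, Scn11a, Tac1 and Calca also count as nociceptor markers, and Chga and Scg2 also count as synaptic genes. Of 35 channel subunits 19 were below 0, of 59 receptors 33, and of 28 neuropeptides 16, with medians of -0.05, -0.04 and -0.20. Without 1 array or another these medians lay between -0.09 and 0.03, between -0.10 and 0.04, and between -0.26 and -0.07. Adcyap1, which encodes the injury-induced peptide PACAP, had signals of 1321.7, 918.9 and 1118.6 in HP sham, 2097.1, 1585.2 and 1564.0 in HP SNL, 618.5, 1021.6 and 698.2 in LP sham, and 2764.2, 2322.3 and 2416.5 in LP SNL. The sham arrays of the lines overlapped and the LP SNL arrays lay above the HP SNL arrays. Adcyap1 rose in LP by 1.71 ± 0.21 (limma adjusted p = 0.000543) and had 0.64 ± 0.21 in HP (0.069), with an interaction of 1.07 ± 0.29 (95% interval 0.42 to 1.71, adjusted p = 0.988). Tac1, the substance P gene, fell by 1.28 ± 0.15 in HP and fell by 1.69 ± 0.15 in LP, with an interaction of -0.41 ± 0.21 (adjusted p = 0.988).

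The injury programme was called equally often in the lines. Of 54 nerve injury and regeneration genes, 35 rose in HP (7.02% of all genes did) and 35 in LP (7.66% of all genes), and 1 fell in each. Their median response was 0.87 in HP and 0.95 in LP. Of their interactions 24 were above 0 and 30 below 0 (55.6%, against 48.5% of all genes). The median interaction was -0.08 (-0.09 to -0.03 with each array left out), so the sizes leaned slightly below 0. At an unadjusted p under 0.05, 1 was above 0 and 4 were below (2.91% and 1.8% of all genes). Atf3, a transcription factor of injured neurons, had signals of 416.3, 219.2 and 272.7 in HP sham, 1581.2, 1793.3 and 1614.3 in HP SNL, 224.3, 326.5 and 251.0 in LP sham, and 1956.9, 2060.8 and 1734.9 in LP SNL. In both arms the lines overlapped, and the interaction of Atf3 was 0.35 ± 0.31 (95% interval -0.34 to 1.03, adjusted p = 0.988).

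Sprr1a, a small proline-rich protein that promotes axon outgrowth, had the second smallest p of this list after Adcyap1. Its signals were 185.6, 120.7 and 147.1 in HP sham, 690.2, 657.6 and 859.8 in HP SNL, 261.4, 259.1 and 263.3 in LP sham, and 759.3, 770.8 and 808.8 in LP SNL. The lines stood apart after sham, where LP was higher, and overlapped after ligation. Sprr1a rose by 2.29 ± 0.15 in HP and by 1.57 ± 0.15 in LP, with an interaction of -0.71 ± 0.22 (95% interval -1.19 to -0.24, limma adjusted p = 0.988). Gfap, the intermediate filament of reactive satellite glia, rose by 1.67 ± 0.09 in HP and by 1.54 ± 0.09 in LP, with an interaction of -0.13 ± 0.13 (adjusted p = 0.988).

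Some strong responses had interactions near 0. Among the genes past the threshold on average with a mean response of at least 2 log2 units, the 6 with the interaction nearest 0 were Nkain1, Htr1d, Serpinb2, Fcgr2b, B3gat2 and Gal. Htr1d, a serotonin receptor that triptans act on, had signals of 367.8, 433.9 and 356.7 in HP sham, 32.4, 29.5 and 27.0 in HP SNL, 473.8, 370.5 and 345.2 in LP sham, and 33.7, 30.8 and 24.5 in LP SNL. It fell 12.6-fold in HP and 12.9-fold in LP, with an interaction of -0.04 ± 0.22 (95% interval -0.53 to 0.46), and -0.32 after quantile normalization. Gal, which encodes the peptide galanin, had 1380.1, 847.6 and 956.1 in HP sham, 4063.4, 4498.0 and 5026.7 in HP SNL, 1014.3, 1126.7 and 693.9 in LP sham, and 4248.5, 4792.5 and 3830.6 in LP SNL. It rose 4.34-fold in HP and 4.61-fold in LP, with an interaction of 0.09 ± 0.31 (-0.60 to 0.77). The lines overlapped in both arms for Htr1d and Gal. Nkain1, which interacts with the sodium pump, had -0.02 ± 0.31 (-0.71 to 0.67) and is likewise held within 2-fold by its interval. For Serpinb2, a protease inhibitor of macrophages, Fcgr2b, an inhibitory Fc receptor, and B3gat2, a glucuronyltransferase, the intervals reached from -2.21 to 2.28, from -2.22 to 2.36 and from -1.58 to 1.43, so a value near 0 says little there.

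**Figure D4:**
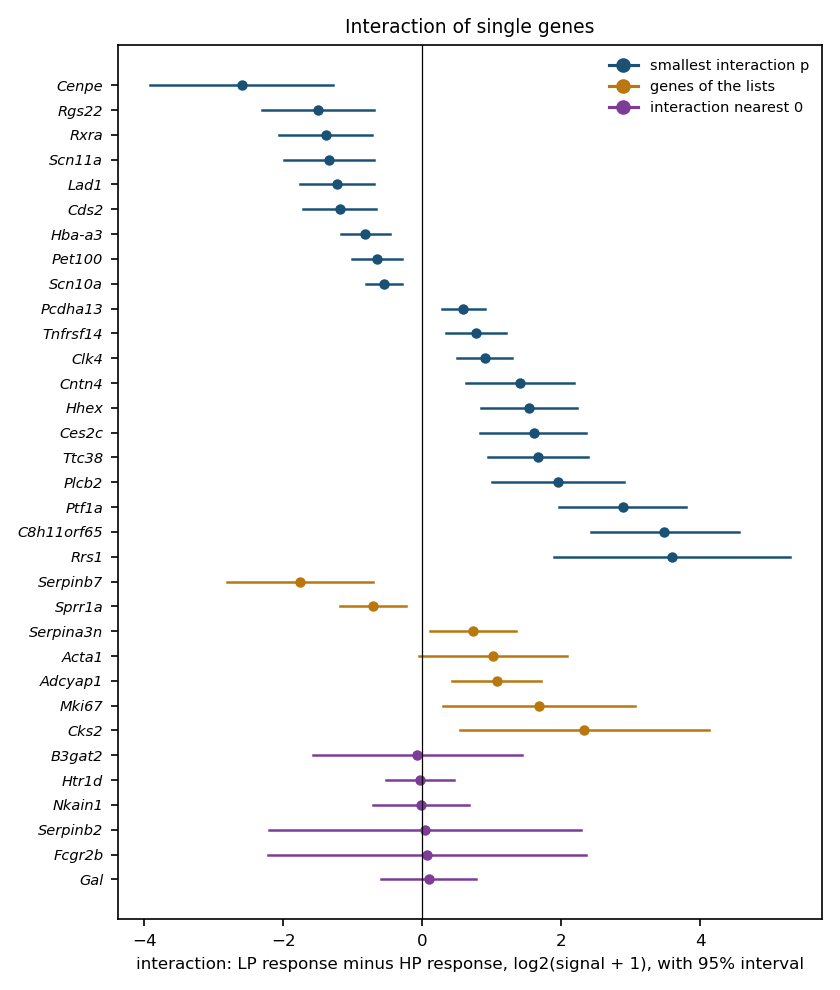
The interaction of single genes (points) with its 95% interval (lines) on the log2(signal + 1) scale, from 3 arrays per group. Blue genes are the 20 of smallest p, orange genes come from the lists, and purple genes are the strong responders nearest 0. None passed after adjustment, and the intervals of Htr1d, Nkain1 and Gal stay within 1 unit of 0, while those of Serpinb2 and Fcgr2b pass 2 units.

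Serpina3n rose in both lines and had an interaction of 0.73 ± 0.28 that did not pass. Its signals were 180.6, 173.1 and 243.3 in HP sham, 659.9, 696.5 and 837.1 in HP SNL, 382.0, 246.6 and 249.0 in LP sham, and 1753.8, 1967.4 and 1560.1 in LP SNL. The LP arrays lay above the HP arrays after sham, narrowly, and after SNL by a wide gap. Serpina3n rose by 1.88 ± 0.20 in HP, or 3.68-fold, and by 2.61 ± 0.20 in LP, or 6.10-fold (limma adjusted p = 0.00039 and 7.2e-05). The line difference was 0.54 ± 0.20 after sham (adjusted p = 0.429) and 1.27 ± 0.20 after SNL (adjusted p = 0.0486). The 95% interval of the interaction was 0.11 to 1.35 (unadjusted p = 0.0263, adjusted p = 0.988), and the value lay between 0.58 and 0.94 with each array left out. Of 36 serpins and protease inhibitors, 20 had an interaction above 0 and 16 below, with a median of 0.02. Serpinb7, an intracellular serpin, had the smallest p among them. Its signals were 36.3, 29.9 and 27.2 in HP sham, 107.7, 36.3 and 94.3 in HP SNL, 38.4, 32.9 and 45.0 in LP sham, and 26.4, 24.5 and 26.1 in LP SNL. Its HP SNL arrays were uneven, with replicate 2 at the level of a sham array. The interaction of Serpinb7 was -1.76 ± 0.47 (adjusted p = 0.988), passed at -2.24 (adjusted p = 0.0119) without that array, and was 1.45 on the other probe set of the gene.

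Immune gene lists had median interactions close to 0. Of 37 macrophage and monocyte markers, 26 rose in HP and 24 in LP (7.02% and 7.66% of all genes), and none fell, with median responses of 1.00 and 1.04. Their interactions had a median of 0.07 (-0.01 to 0.13 with each array left out), with 22 above 0 and 15 below. Summed signals of these markers overlapped between the lines after sham (22746 to 24729 in HP, 21371 to 23041 in LP) and after SNL (39549 to 43755 in HP, 36044 to 41792 in LP). Gpnmb, a glycoprotein of phagocytes, had signals of 480.0, 612.2 and 342.7 in HP sham, 1173.4, 1614.2 and 1595.3 in HP SNL, 224.6, 292.5 and 290.5 in LP sham, and 1598.6, 1254.1 and 1714.9 in LP SNL. Its lines differed after sham, where LP was lower, and overlapped after SNL, and the interaction was 0.86 ± 0.32 (limma adjusted p = 0.988). Clec4a3, a lectin receptor of myeloid cells, rose by 1.19 ± 0.16 in HP and by 1.75 ± 0.16 in LP, with an interaction of 0.56 ± 0.22 (adjusted p = 0.988). Of 70 cytokine and chemokine genes and receptors, 41 had an interaction above 0, with a median of 0.05, and 9 rose in HP and 7 in LP (7.02% and 7.66% of all genes), not far from the share of all genes. Tnf, the inflammatory cytokine, was dim, with signals of 53.3, 56.7 and 29.9 in HP SNL and 91.1, 100.2 and 107.5 in LP SNL, and overlapped between the lines after sham. The interaction of Tnf was 0.97 ± 0.32 (adjusted p = 0.988), and 0.36 on its other probe set.

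T cell and natural killer markers, neutrophil and mast cell markers, complement, interferon and antigen presentation genes had median interactions of 0.04, 0.07, -0.04, 0.01 and -0.01, over 35, 23, 25, 32 and 30 genes. None of these medians kept its sign when each array was left out in turn. Ciita, the master regulator of MHC class II genes, had signals of 66.1, 112.9 and 72.1 in HP sham, 253.3, 393.7 and 181.2 in HP SNL, 339.8, 221.6 and 208.8 in LP sham, and 260.7, 196.0 and 277.8 in LP SNL. Only the HP sham arrays of Ciita stood apart, below the other groups. It rose by 1.68 ± 0.31 in HP (limma adjusted p = 0.00659) and had -0.05 ± 0.31 in LP (0.948), with an interaction of -1.73 ± 0.44 (95% interval -2.71 to -0.74, adjusted p = 0.988). RT1-N3, an MHC class I gene whose probes may also read its close relatives, had an interaction of 2.11 ± 0.67 (adjusted p = 0.988), and its arrays overlapped between lines in both arms.

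Of 40 immediate early and heat shock genes, which respond to activity and stress, 27 had an interaction above 0 (67.5%, against 51.5% of all genes). The heat shock members did not share this lean and lay on both sides, as Hspe1 (-0.21), Hspd1 (-0.18), Dnajb1 (0.14) and Hspb8 (0.18). Over all 40 genes the median interaction was 0.09 (0.07 to 0.19 with each array left out), with median responses of 0.19 in HP and 0.50 in LP. In HP 9 rose and 2 fell (7.02% and 6.61% of all genes), and in LP 12 rose and 4 fell (7.66% and 6.79% of all genes), the fallers near the share of all genes. Nr4a3, a nuclear receptor induced by activity, had signals of 189.3, 213.7 and 202.9 in HP sham, 179.4, 183.7 and 189.4 in HP SNL, 236.5, 186.4 and 226.9 in LP sham, and 271.9, 269.5 and 300.5 in LP SNL. The sham arrays overlapped and the LP SNL arrays lay above the HP SNL arrays. Its interaction was 0.51 ± 0.15 (limma adjusted p = 0.988), and 1.26 on the other probe set. Fosb, a subunit of AP-1, had signals of 64.8, 65.3 and 87.1 in HP sham, 5.8, 36.5 and 7.6 in HP SNL, 16.7, 74.5 and 61.0 in LP sham, and 53.2, 100.2 and 149.1 in LP SNL. HP SNL replicates 1 and 3 lay under the 5th percentile of the arrays, so the interaction of 3.59 ± 0.99 (95% interval 1.38 to 5.80, adjusted p = 0.988) has an uncertain size. Fosl2, another AP-1 subunit, had 2.21, and passed at 3.00 (adjusted p = 0.0231) without HP sham replicate 3.

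Among genes of dividing cells and of the matrix, some rose in each line and most did not pass. Of 51 cell cycle genes, 12 rose in HP and 17 in LP (7.02% and 7.66% of all genes), and none fell, with median responses of 0.44 and 0.56. Their interactions had a median of 0.08 (0.01 to 0.15 with each array left out). At an unadjusted p under 0.05, 6 were above 0 and 2 below (2.91% and 1.8% of all genes). Mki67, a nuclear protein of dividing cells, had signals of 19.2, 63.5 and 56.5 in HP sham, 221.5, 153.9 and 233.9 in HP SNL, 6.0, 12.3 and 13.2 in LP sham, and 213.1, 127.1 and 171.3 in LP SNL. The LP sham arrays were the lowest, at or under the 5th percentile, and the SNL arrays overlapped. Mki67 had an interaction of 1.68 ± 0.62 (limma adjusted p = 0.988), whose size is uncertain and was 0.62 with a pseudocount of 32. Cks2, a subunit of cyclin-dependent kinases, had signals of 91.0, 97.5 and 15.5 in HP sham, 147.4, 230.8 and 126.7 in HP SNL, 11.4, 16.2 and 13.8 in LP sham, and 258.0, 228.4 and 199.1 in LP SNL. The spread of Cks2 in HP sham came from replicate 3, which lay with the LP sham arrays near the 5th percentile. Its interaction was 2.33 ± 0.81 (adjusted p = 0.988), and passed at 3.18 (adjusted p = 0.024) without HP sham replicate 3, but was 1.40 with a pseudocount of 32, so its size is uncertain. Cenpe, a kinesin of the kinetochore, went the other way from dim signals, 18.6, 20.7 and 11.9 in HP sham, 36.9, 94.2 and 89.2 in HP SNL, 49.0, 26.2 and 40.6 in LP sham, and 38.9, 16.8 and 20.2 in LP SNL. The SNL arrays of the lines overlapped, and the interaction of Cenpe was -2.6 ± 0.59 (95% interval -3.92 to -1.28, limma adjusted p = 0.885). Its HP sham signals lay near the 5th percentile, and it ran from -3.03 to -1.36 over the alternatives, so its size is uncertain.

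Of 71 extracellular matrix and protease genes, 29 rose in HP and 35 in LP (7.02% and 7.66% of all genes), and 1 fell in each, with median responses of 0.45 and 0.51 and a median interaction of 0.04 (0.01 to 0.09 with each array left out). Adamts1, a secreted metalloprotease, had signals of 186.7, 228.1 and 218.6 in HP sham, 360.6, 459.1 and 407.9 in HP SNL, 148.3, 214.7 and 239.4 in LP sham, and 609.4, 599.3 and 717.6 in LP SNL. The sham arrays overlapped and the LP SNL arrays lay above the HP SNL arrays. Adamts1 rose by 0.95 ± 0.18 in HP and by 1.70 ± 0.18 in LP, with an interaction of 0.75 ± 0.25 (limma adjusted p = 0.988). Shh, the secreted signal Sonic hedgehog, had signals of 18.5, 19.1 and 14.4 in HP sham, 131.3, 49.7 and 45.0 in HP SNL, 18.6, 24.9 and 24.5 in LP sham, and 257.0, 162.0 and 202.5 in LP SNL. The sham arrays lay near the 5th percentile, HP SNL replicate 1 stood above the other HP SNL arrays, and all LP SNL arrays lay above the HP SNL arrays. Shh rose in each line by limma, by a size that is uncertain, and its interaction of 1.23 ± 0.50 did not pass (adjusted p = 0.988), with values of 0.95 to 1.72 when each array was left out. Fibroblast and meningeal, endothelial and mural, and TGF-beta genes had median interactions of 0.03, 0.02 and 0.00 over 32, 38 and 42 genes. Satellite glia and Schwann repair genes had -0.11, with 21 of 33 below 0, and myelin genes had 0.10, with 14 of 18 above 0 and none at an unadjusted p under 0.05. Cholesterol synthesis genes, of which 5 of 23 fell in HP and 7 in LP (6.61% and 6.79% of all genes), had a median of 0.00.

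**Figure D5:**
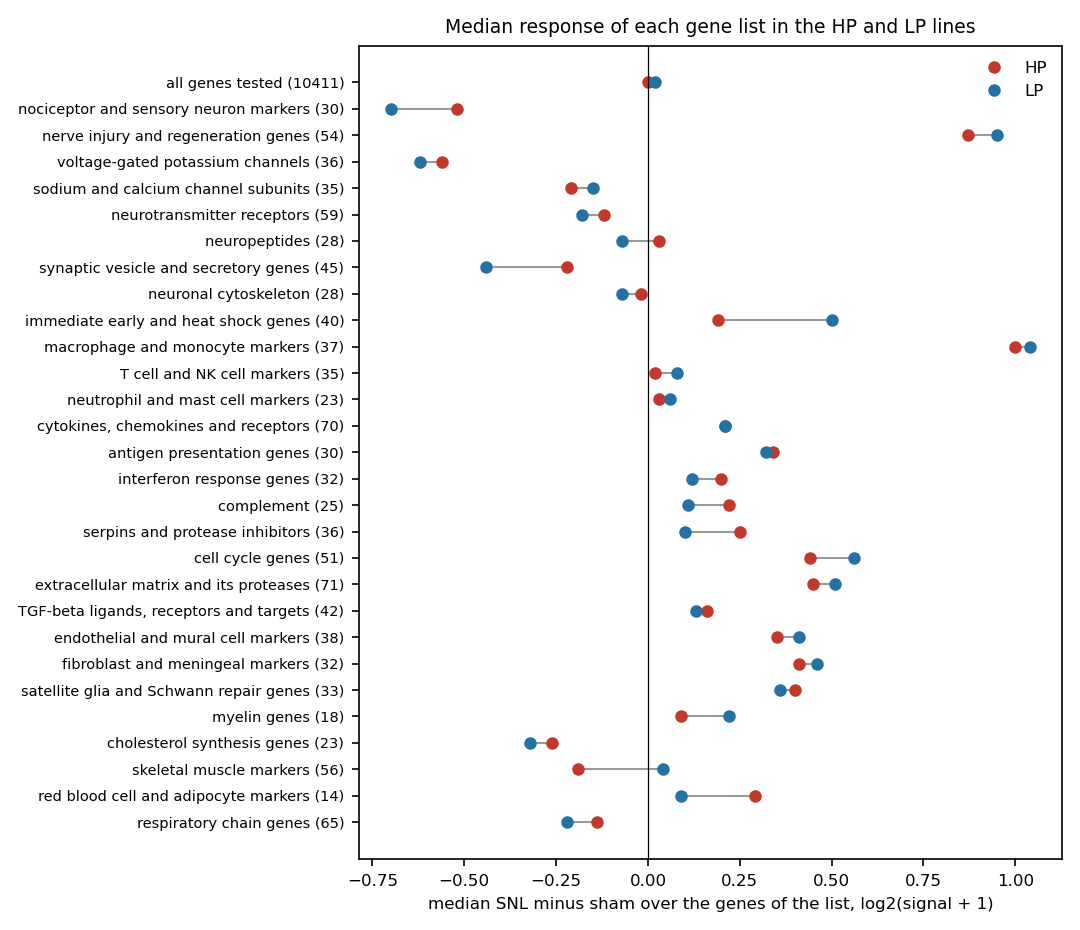
The median SNL minus sham difference of each gene list in HP (red) and LP (blue), on the log2(signal + 1) scale, with the number of measured genes in brackets. The lines lie close for injury genes (0.87 and 0.95) and macrophage markers (1.00 and 1.04). They lie further apart for synaptic genes (-0.22 and -0.44) and for the pooled list of immediate early and heat shock genes (0.19 and 0.50).

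The 20 genes with the smallest interaction p-values were mostly dim. Of these 20, 13 lay in the dimmest 25% of genes and 3 in the brightest, 11 had an interaction above 0 and 9 below, and their adjusted p-values ran from 0.189 to 0.988. In 16 of them the responses had opposite signs in the lines. The smallest p belonged to C8h11orf65, the gene that fell in HP and rose in LP. Its signals were 100.6, 111.2 and 107.3 in HP sham, 18.6, 18.5 and 34.1 in HP SNL, 30.4, 60.5 and 75.9 in LP sham, and 98.5, 140.2 and 160.2 in LP SNL. The lines stood apart in both arms, with LP lower after sham and higher after SNL. C8h11orf65 fell by 2.17 ± 0.34 in HP (limma adjusted p = 0.0027) and rose by 1.31 ± 0.34 in LP (0.0267), with an interaction of 3.48 ± 0.48 (95% interval 2.42 to 4.55, adjusted p = 0.189). It passed with the actin ratio as a covariate, at 3.85 (adjusted p = 0.00574). Its other probe set gave -0.41, and the mean of its probe sets gave 1.54 (adjusted p = 0.982).

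Ptf1a, a transcription factor of the pancreas and of inhibitory neurons of the dorsal spinal cord, had signals of 70.2, 103.6 and 160.9 in HP sham, 25, 21 and 28.4 in HP SNL, 80.3, 52.7 and 91.0 in LP sham, and 112.5, 149.3 and 129.5 in LP SNL. The sham arrays overlapped, and after SNL the HP arrays lay far below the LP arrays. Ptf1a fell by 2.05 ± 0.29 in HP (limma adjusted p = 0.00159) and had 0.82 ± 0.29 in LP (0.0904), with an interaction of 2.88 ± 0.41 (95% interval 1.96 to 3.79, adjusted p = 0.189), and 1.91 with a pseudocount of 32. Rrs1, a ribosome assembly factor, had signals of 67.1, 72.5 and 91.7 in HP sham, 11.3, 10.3 and 55.8 in HP SNL, 18.6, 24.6 and 42.2 in LP sham, and 76.5, 78.4 and 102.8 in LP SNL. HP SNL replicate 3 stood above the other HP SNL arrays of Rrs1, and several values lay near the floor. The interaction of Rrs1 was 3.59 ± 0.76 (adjusted p = 0.745), and it passed at 4.34 (adjusted p = 0.0181) without that array.

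None of the other genes of this group passed either. Ttc38 (1.66 ± 0.32), Plcb2, a phospholipase C (1.95 ± 0.43), Ces2c, a carboxylesterase (1.6 ± 0.34), Hhex, a homeobox factor (1.54 ± 0.31), Clk4, a kinase of splicing factors (0.90 ± 0.18), Tnfrsf14, a receptor of lymphocyte costimulation (0.77 ± 0.19), and Pcdha13, a neuronal protocadherin (0.59 ± 0.14), had interactions above 0. Rgs22, a regulator of G protein signalling (-1.50 ± 0.36), Rxra, the retinoid X receptor alpha (-1.39 ± 0.30), Lad1, a basement membrane protein (-1.23 ± 0.24), Cds2, an enzyme of phosphatidylinositol synthesis (-1.19 ± 0.23), and Pet100, an assembly factor of cytochrome c oxidase (-0.65 ± 0.16), had interactions below 0. Clk4, at 360.2, 425.9 and 457.8 in HP sham, 253.1, 288.0 and 250.6 in HP SNL, 241.6, 286.2 and 264.7 in LP sham, and 311.6, 283.4 and 349.7 in LP SNL, was among the brighter of these. Its lines stood apart after sham, where LP was lower, and overlapped after SNL.

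Hba-a3, an alpha globin gene of red blood cells whose probes may also read the other alpha globin genes, had signals of 1919.4, 1817.8 and 1649.1 in HP sham, 2487.0, 2961.9 and 3176.6 in HP SNL, 2412.2, 2451.0 and 2279.4 in LP sham, and 2291.9, 1993.5 and 2176.6 in LP SNL. The HP sham arrays were the lowest and the HP SNL arrays the highest. Its interaction was -0.82 ± 0.16 (95% interval -1.17 to -0.47, limma adjusted p = 0.682). The other defining blood markers had interactions of the same sign, and neither passed. Hbb, beta globin, was 8151.7 to 9291.9 in HP sham and 12325.0 to 13390.1 in HP SNL, with overlapping LP arrays and an interaction of -0.47 ± 0.21, and Alas2, the haem synthesis enzyme of red cells, had an interaction of -1.02 ± 0.40. Over the 14 red blood cell and adipocyte markers, summed signals were 10996 to 12441 in HP sham, 15824 to 17628 in HP SNL, 10657 to 14604 in LP sham and 11620 to 15471 in LP SNL. Their median interaction was -0.16 (-0.26 to 0.03 with each array left out), and 8 of 14 were below 0 (57.1%, against 48.5% of all genes). The adipocyte gene Fabp4 lay between 3.2 and 36.2. The part of blood in the other results was not tested.

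Some skeletal muscle markers, Acta1 and the dim myosin gene Myh4 (123.7 and 154.1, against 3.1 to 61.0 elsewhere), were higher on 2 HP sham arrays. The summed signal of the whole muscle list in HP sham overlapped that of every other group. Tnni2 and Ckm, also chosen as muscle markers, had their highest signals in HP sham too, at 465.2 and 503.3. Their interactions were 0.53 ± 0.34 and 0.20 ± 0.30. Signals of Acta1, the actin of skeletal muscle, were 1232.7, 435.6 and 1015.7 in HP sham, 357.9, 389.2 and 314.4 in HP SNL, 336.5, 363.0 and 493.2 in LP sham, and 423.0, 284.8 and 331.7 in LP SNL. HP sham replicates 1 and 3 lay above all other arrays, and replicate 2 did not. The interaction of Acta1 was 1.01 ± 0.48 (limma adjusted p = 0.988), and 0.11 without those arrays. Of 56 muscle markers, 35 had an interaction above 0, with a median of 0.21 (0.05 after quantile normalization). At an unadjusted p under 0.05, 6 lay above 0 and none below (2.91% and 1.8% of all genes). In HP 6 fell and 3 rose (6.61% and 7.02% of all genes), and in LP 1 rose and none fell (7.66% and 6.79% of all genes). Without HP sham replicates 1 and 3 the median was 0.10 and 3 lay on each side. Mb, myoglobin, had 26.4, 27.4 and 28.1 in HP sham against 15.4, 16.2 and 14.2 in HP SNL, with overlapping LP arrays, all close to the floor, and an interaction of 1.06 ± 0.31. Summed over the list, which holds broadly expressed genes too, signals were 14536 to 16211 in HP sham, 15053 to 15531 in HP SNL, 13855 to 14779 in LP sham and 15618 to 16208 in LP SNL. Without HP sham replicates 1 and 3, ligation called 313 genes in HP in place of 1419, from 1 sham array whose spread is taken from the other groups, and the LP response over the called genes was 0.986 times the HP response. The nociceptor median was then -0.18, the interaction of Scn10a kept its sign, and that of Serpina3n was 0.55. The part of muscle in these results was not tested.

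Differences between the lines within an arm show where an interaction lies. After SNL, 18 genes (0.173%) differed between LP and HP by limma, 9 higher in LP (0.0864%) and 9 lower (0.0864%), and after sham 1 gene did (0.00961%), Scaf1, which lay lower in LP. Of the 18, 16 had the same sign after sham. An unadjusted interaction p under 0.05 by limma was found for 8 of them, against 4.71% of all genes. The 18 were picked by the difference after SNL, which is part of the interaction, so that count adds no support. Gpx2, a selenium-dependent glutathione peroxidase, had signals of 2209.0, 2428.6 and 1895.3 in HP sham, 3337.4, 3350.8 and 3576.3 in HP SNL, 948.0, 1247.5 and 997.7 in LP sham, and 997.6, 1186.3 and 987.6 in LP SNL. LP lay below HP in both arms, and Gpx2 rose in HP by 0.66 ± 0.13 (adjusted p = 0.0105), against 0.00 ± 0.13 in LP (0.991), with an interaction of -0.66 ± 0.19 (adjusted p = 0.988). Scaf1, which binds RNA polymerase II, and RT1-Bb, an MHC class II gene, differed between lines by -2.09 ± 0.24 and -1.94 ± 0.27 after SNL and had interactions of 0.00 ± 0.34 and 0.00 ± 0.38, though the other probe set of RT1-Bb gave 1.11. Tmem41a, a membrane protein of the endoplasmic reticulum, fell in LP by 1.02 ± 0.17 (adjusted p = 0.00352) and had -0.26 ± 0.17 in HP (0.38), with an interaction of -0.76 ± 0.24 (adjusted p = 0.988).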

How the data were processed

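Total RNA of 12 samples was read on Affymetrix arrays. The deposited values are linear intensities of 15923 probe sets, between 0 and 13930.7. RMA, without a version, is the tool that the submitters' processing notes name, yet all arrays share a trimmed mean of 500.1, which RMA alone does not give, so the authors' steps and any scaling are not settled here. The design had allowed for log2 values. The values proved linear, so log2(intensity + 1) was used without further normalization (109 of 191076 values were below 1). Probe sets with 1 gene name (12783) were named by the platform annotation, updated by a RefSeq table of GRCr8, and the brightest of a gene was kept (1868 of 10411 genes had several). 

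limma 3.58.1 in R 4.3.3 fitted 4 group means over 12 arrays (8 residual and 2.05 prior degrees of freedom), with two-sided moderated tests, Benjamini-Hochberg adjustment over all genes and a threshold of 0.05. Fits were tested on simulated data. Array intensities carry no read depth. Replicate numbers were checked for pairing. Deviations from group means of same-numbered arrays correlated at -0.178 to 0.109, over 0.1 in 1 of 18 pairs. The values thus showed no pairing by number, but such a check cannot establish that the samples were unpaired. Alternatives were the replicate block, pseudocounts of 16 and 32, quantile normalization, centring on the median, a trended robust variance, weights on arrays, a filter on the dimmest 25% of genes, all or averaged probe sets, the actin ratio as a covariate, leaving out each array, and leaving out HP sham replicates 1 and 3 together.

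The members, the 28 gene lists and the alternatives were chosen with earlier results of these data known. Named were the 20 genes of smallest interaction p, up to 2 of each list by p, Serpina3n and Elane, genes strong in earlier results on each line, genes past in both lines in opposite directions, and the 6 strong responders nearest 0. Genes past in a line contrast, Fosl2, Prr35, the cell type markers and the motifs were named apart from that rule, after their values were seen. Some genes the rule allows add nothing and are left out.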

Additional observations from a re-analysis of the deposited data

Results flagged for a closer look

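In 7 of the 20 genes of smallest interaction p, all SNL arrays lay above all sham arrays in one line and below them in the other. Over all genes, 9 (0.0864%) had SNL above sham in HP and below it in LP, and 13 (0.125%) the reverse. The genes below sham in HP and above it in LP were C8h11orf65 (interaction 3.48), Ptf1a (2.88), Ttc38 (1.66) and Rrs1 (3.59). Those above sham in HP and below it in LP were Lad1 (-1.23), Cds2 (-1.19) and Pet100 (-0.65). Each difference between the lines was tested by limma, and none passed, with adjusted p-values of 0.189 or more. The genes were picked by the same p-values, so the pattern adds no support to them.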

How the results depend on the processing

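No gene passed for the interaction under the settings run, with these exceptions. With the actin ratio as a covariate 1 gene passed (C8h11orf65), and with each array left out in turn the count ran from 0 to 2 (Cks2 and Fosl2 without HP sham replicate 3, Prr35 at -1.81 and Serpinb7 without HP SNL replicate 2, Rrs1 without HP SNL replicate 3). The values showed no pairing by replicate number. With the replicate block 0 genes passed by limma, 465 had an unadjusted p under 0.05 and the smallest adjusted p was 0.0521. The count for ligation averaged over the lines was 1579 without HP sham replicates 1 and 3, against 2583. In HP the count of 1419 became 816 with the actin covariate, 313 without HP sham replicates 1 and 3, and 846 to 1489 with each array left out. In LP it was 1028 to 1451 with each array left out, against 1504. The slope of the interaction on the mean response, 0.07 over the called genes, was 0.00 with the actin covariate, -0.01 without HP sham replicates 1 and 3, and -0.01 to 0.16 with each array left out. The cause of these shifts was not tested. Over 111 named genes and 2610 fits of a gene under an alternative, 41 moved by more than the spread and 4 passed the threshold. Since no interaction was called, none could be reversed as a call, and signs near 0 did turn, as for Htr1d (-0.32 to 0.14), Atf3 (-0.06 to 0.56) and RT1-Bb (-0.36 to 1.11). Precision was lower for dim genes than for bright ones, and 3 arrays per group held the interaction within 2-fold for 70.1% of genes.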

Other observations

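A separate fit covered the 3083 probe sets that name no gene or several. Of these, none passed for the interaction by limma (smallest adjusted p = 0.0802), and 156, or 5.06%, had an unadjusted p under 0.05.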
